A study of Salmo salar with 30 samples.

Results

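The transcriptomes of 10 juvenile Atlantic salmon (Salmo salar) were compared between full-sib families: 5 juveniles of family X22 and 5 of family X35, all reared without gravel. They are 10 of 30 juveniles in the study, and they were chosen by family and rearing environment as the sample labels give them, so no measured value entered the choice. The other 20 juveniles are X22 and X35 siblings reared in tanks enriched with gravel (5 each) and family X11, with 5 juveniles in each environment. X22 and X35 each had a wild Little River dam and a farmed sire of the Saint John River strain, and X11 had a wild sire. All fish were sampled at emergence, the stage when the yolk is spent and feeding begins, and the whole head was taken from directly behind the gill cover. Each family is 1 cross and was held in 1 tank per environment, and the X35 cross was made on a later date than the X22 cross. A difference between X22 and X35 is therefore one between these broods, and parents, tank and spawning date cannot be told apart. The p-values below measure the spread among juveniles of 1 tank per family.

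A salmon head at emergence holds brain, eyes, gills, skin, jaw muscle and cartilage. The study reports that its head samples also included the heart. Crystallins are the proteins that make the eye lens transparent, neurofilaments are the scaffold of axons, globins come from red blood cells, and atrial myosin light chains belong to the heart's upper chamber. Ribosomal proteins and subunits of the respiratory chain are made in nearly every cell. Chemokines and interferon-induced GTPases belong to innate immunity. Full siblings share parents but not genotypes, so the spread within a family holds both segregating genetic variation and individual condition.

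Transcript abundance was read on a salmonid array with spots in 170 rows, each juvenile in Cy5 against a common Cy3 pool of all juveniles, and it is given below as the log2 ratio of juvenile over pool. Differences are X22 minus X35. After removal of dim spots 21136 probes were tested. Between 37.7% and 42.9% of spots exceeded the Cy5 limit (mean background plus 2 SD) in X22 juveniles and between 36.3% and 39.1% in X35 juveniles, with means of 40.6% ± 2.04 for X22 and 37.3% ± 1.18 for X35 (SD, n = 5 each; exact two-sided permutation p = 0.0238, adjusted p = 0.0635 over 8 array measures). Spots removed for poor quality averaged 2.89% ± 0.788 on the X22 arrays and 1.52% ± 0.26 on the X35 arrays (SD, n = 5 each; exact permutation p = 0.0159, adjusted p = 0.0635). The scanner's Cy5 gain, as read from the image names in the order of the arrays, was 62 to 65 for X22 and 68 to 74 for X35 (exact permutation p = 0.00794, the smallest that 5 against 5 allows, adjusted p = 0.0635). X22 juveniles were hybridized on slides 1 and 2 and X35 juveniles on slides 6 and 7, so family and slide cannot be told apart within the unenriched juveniles. The part of these array measures in the differences below was not tested. Names were available for 3073 of the retained probes (14.5%), taken from the study's lists of probes that respond to rearing. The named probes are therefore not a cross-section of the transcriptome.

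Of the 21136 probes, 88 (0.416%) differed between unenriched X22 and X35 juveniles at an adjusted p under 0.05. Transcripts were higher in X22 for 35 probes (0.166%) and lower for 53 (0.251%). With normexp background correction the split was 79 higher and 62 lower. By SAM, the permutation test that the study used, 1638 of the 20213 probes measured on all 10 arrays (8.1%) were called at an FDR of 5%, 831 higher and 807 lower. Of the 88, 83 were measured on all 10 arrays, and SAM called all 83. Unadjusted p fell under 0.05 for 4051 probes (19.2%; 9.95% higher and 9.22% lower), and the families did not overlap for 993 of the 20955 probes that could be scored (4.74%). The higher probes differed by 0.74 to 2.65 on the log2 scale, with a median of 1.29. The lower probes differed by -2.85 to -0.63, with a median of -1.23. All 35 higher probes and 51 of the 53 lower probes showed no overlap between the families. Of the 88, 35 were above the Cy5 limit on all 10 arrays (7 higher, 28 lower), whereas 17 of the higher probes were under that limit on every X35 array and 5 of the lower probes on every X22 array. Another 4 higher and 4 lower probes were under it in both families. Names were available for 5 of the higher and 19 of the lower probes.

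The number of called probes depended on which juveniles entered. Leaving out X22 replicate 1, 2, 3, 4 or 5 gave 60, 32, 30, 12 and 15 called probes. Leaving out X35 replicate 1, 2, 3, 4 or 5 gave 138, 650, 52, 37 and 85. In all 10 of these runs the 88 probes kept their sign, which lack of overlap between the families fixed in advance for all but 2 lower probes. The call held in all 10 runs for 9 probes (5 higher, 4 lower). Of those 9, 8 had no name and 1 was the transcription termination factor 1-like probe C194R001. Among the 20 probes described individually below as called, calls held in 1 to 10 of the 10 runs, and the highest adjusted p of a run lay between 0.034 and 0.128.

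The largest difference among the called probes with a name was in an immune gene. Interferon-induced very large GTPase 1-like (C066R111) belongs to a family of giant GTPases that interferons induce in mammals. Its log2 ratios in X22 juveniles were -0.41, -3.08, -0.30, -0.41 and -0.86, against 1.98, 1.35, 2.06, 2.11 and 1.71 in X35 juveniles. Every X35 juvenile stood above every X22 juvenile, and the X22 signal was under the Cy5 limit on all 5 arrays while the X35 signal was above it on all 5. The transcript was thus at least 4.62-fold higher in X35, a bound set by the lowest signal above background on the X22 arrays (adjusted p = 0.034). The call held in 3 of 10 runs with a juvenile left out.

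Lymphatic vessel endothelial hyaluronic acid receptor 1 (C144R120), a hyaluronan receptor of lymphatic endothelium in mammals, had log2 ratios of -0.24, -0.32, 0.15, 0.19 and -0.40 in X22 juveniles and 1.41, 1.09, 1.91, 1.13 and 0.85 in X35 juveniles. The families did not overlap, and all 10 arrays were above the Cy5 limit. The difference was -1.40 ± 0.21 (SE, adjusted p = 0.022), and another probe of the same name, C048R157, differed by -0.39 (adjusted p = 0.241). Differentially expressed in FDCP 6 homolog (C017R036) ranged from -0.05 to 0.95 in X22 juveniles and from 1.25 to 1.90 in the 4 X35 juveniles measured. It was under the limit on all X22 arrays and at least 1.98-fold higher in X35 (adjusted p = 0.044). C-C motif chemokine 19 precursor (C084R162), which in mammals guides lymphocytes and dendritic cells into lymph nodes, ranged from -1.08 to -0.33 in X22 juveniles and from 0.14 to 0.83 in X35 juveniles. It was dim throughout, above the limit on 1 X35 array and no X22 array, so no bound is given (adjusted p = 0.034).

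A pair of lens crystallin probes was also lower in X22. Beta-crystallin B3 (C238R102) had log2 ratios of -0.23, -0.10, 0.57, 0.32 and 0.21 in X22 juveniles, against 1.25, 1.22, 1.91, 1.74 and 1.00 in X35 juveniles. Gamma-crystallin M2-like (C070R090) had -0.93, -0.33, -0.54, -0.74 and -1.0 in X22 juveniles, against 0.46, 0.12, 1.18, 0.64 and 0.46 in X35 juveniles. Neither probe overlapped between the families. The differences were -1.27 ± 0.21 for beta-crystallin B3 (SE, adjusted p = 0.035) and -1.28 ± 0.21 for gamma-crystallin M2-like (SE, adjusted p = 0.032). Both probes were near the limit of detection, with the Cy5 signal above it on 1 X22 and 3 X35 arrays for beta-crystallin B3 and on 2 X22 and 3 X35 arrays for C070R090. The other gamma-crystallin M2-like probes were above the limit on all 10 arrays. C123R081 differed by -0.91 without overlap (adjusted p = 0.066), and C086R033 differed by -0.09 (adjusted p = 0.867). The call for this gene name thus came from 1 of 3 probes.

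Transcription factor HES-1 (C234R078) is a Notch target that holds neural progenitors undifferentiated in vertebrates. It had log2 ratios of 0.29, 0.65, 0.68, 0.35 and 0.94 in X22 juveniles and 1.78, 1.89, 2.46, 1.87 and 1.21 in X35 juveniles. The difference was -1.26 ± 0.22 (SE, adjusted p = 0.038). Neurofilament light polypeptide (C219R080), a subunit of the axonal scaffold, had 0.03, -0.04, -0.01, 0.35 and 0.05 in X22 juveniles and 0.86, 0.55, 0.87, 1.06 and 0.86 in X35 juveniles. It differed by -0.76 ± 0.14 (SE, adjusted p = 0.042). Both probes were above the limit on all 10 arrays and the families did not overlap at either, and HES-1 was saturated on 1 array. Of the 44 probes of the neuron and synapse list described below, 25 were above 0 and 19 below, with a median of 0.18.

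Called probes for protein synthesis and energy metabolism were single members of their groups. Ribosomal protein L7 (C172R121), a component of the large ribosomal subunit, had log2 ratios of -0.36, -0.58, -0.48, -0.43 and -1.07 in X22 juveniles and 0.41, 0.63, 0.45, 0.63 and 0.83 in X35 juveniles. All X22 juveniles were below 0 and all X35 juveniles above it, and the difference was -1.18 ± 0.16 (SE, adjusted p = 0.018), with the call holding in 9 of 10 runs with a juvenile left out. The other probe of that name, C095R019, differed by 0.34 in the opposite direction (adjusted p = 0.472). ATP synthase subunit, mitochondrial (C135R024), part of the complex that makes ATP, lay between -0.03 and 0.54 in X22 juveniles and between 0.91 and 1.76 in X35 juveniles, a difference of -1.0 ± 0.18 (SE, adjusted p = 0.047). Elongator complex protein 4 (C169R117), a subunit of a complex that modifies transfer RNAs, lay between -0.29 and 0.61 in X22 juveniles and between 1.15 and 1.82 in X35 juveniles, a difference of -1.26 (adjusted p = 0.034).

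Signalling genes were also among the named lower probes taken by size of difference. The 14-3-3 protein beta/alpha probe (C206R148), an adaptor that binds phosphorylated proteins, had log2 ratios of -0.60, -0.47, -0.65, -0.42 and -0.70 in X22 juveniles and 0.28, 0.12, 0.82, 1.15 and 0.50 in X35 juveniles. The X22 siblings were tightly grouped (SD 0.118) and the X35 siblings were spread more widely (SD 0.417). The difference was -1.14 ± 0.19 (SE, adjusted p = 0.035), while another 14-3-3 beta/alpha probe, C133R146, differed by -0.09 (adjusted p = 0.778). Mitogen-activated protein kinase kinase kinase kinase 5 (C086R148), which acts upstream of JNK signalling, differed by -1.20 (adjusted p = 0.048). A further 5 named lower probes, chosen here after their values were seen, were an oligosaccharyltransferase complex subunit (ostc), methyltransferase-like protein 5, zinc finger protein 271-like, UPF0193 protein EVG1 and an uncharacterized protein, at -1.32 to -0.73. UPF0193 protein EVG1 was under the Cy5 limit in both families.

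**Figure D1:**
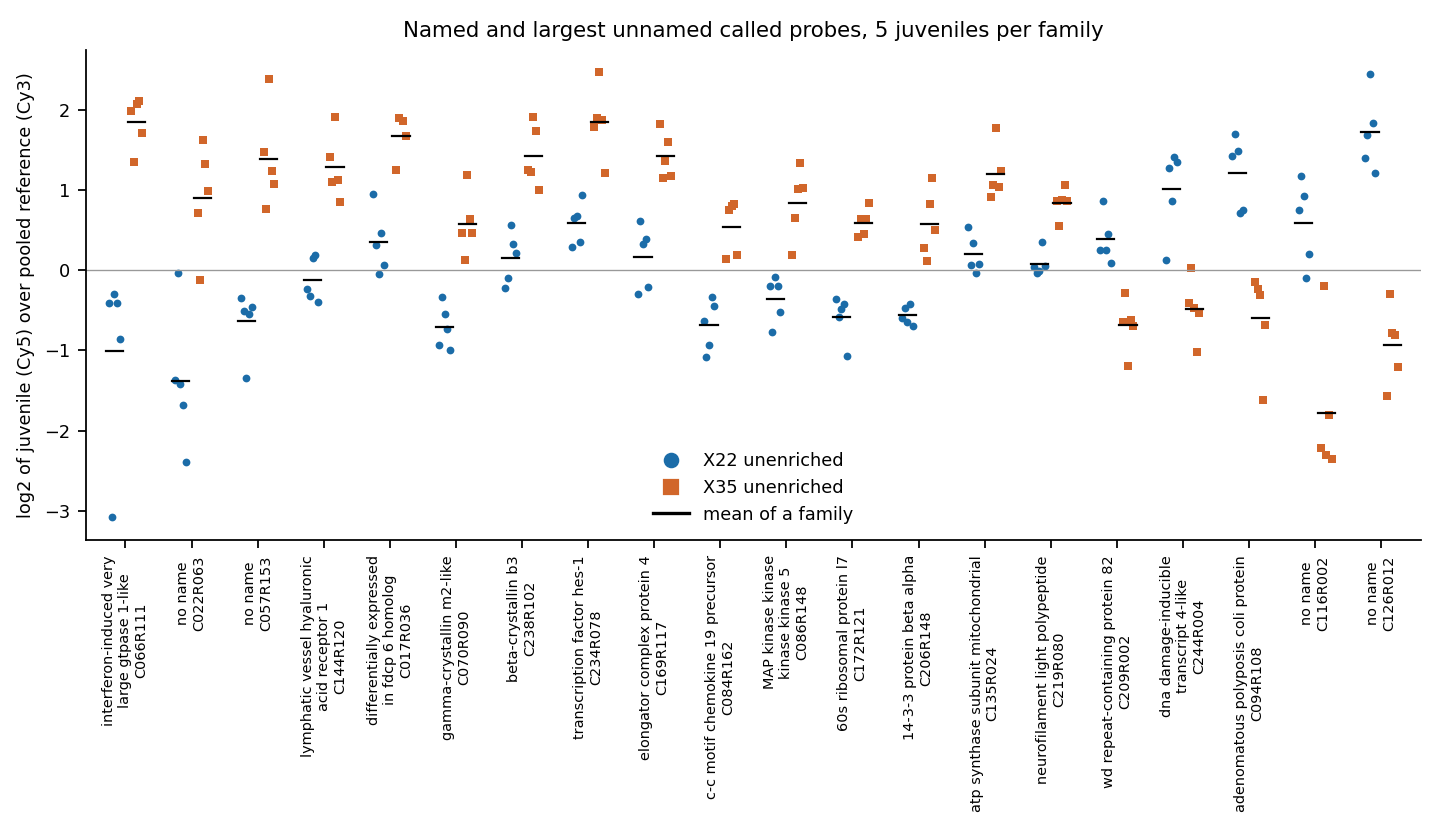
Log2 ratio of juvenile over pooled reference (vertical axis) for the 20 called probes described individually, ordered by X22 minus X35. Circles are the 5 unenriched X22 juveniles, squares the 5 unenriched X35 juveniles, and bars the family means. At 19 of the 20 probes the families did not overlap, the exception being the unnamed probe C022R063. For the named probes taken by size of difference, lack of overlap was a condition of choice.

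Among probes higher in X22, 3 named ones met the criteria of brightness, completeness and lack of overlap between the families. Adenomatous polyposis coli protein (C094R108), which marks beta-catenin for destruction in the Wnt pathway, had log2 ratios of 1.42, 1.69, 1.49, 0.71 and 0.75 in X22 juveniles and -0.15, -0.23, -0.31, -1.62 and -0.68 in X35 juveniles. The families did not overlap (adjusted p = 0.034). The signal was above the Cy5 limit on all X22 arrays and on no X35 array. No bound is given, since it came out above the fold of the ratios. DNA damage-inducible transcript 4-like (C244R004), an inhibitor of mTORC1 signalling in mammals, had 0.13, 1.27, 0.86, 1.41 and 1.35 in X22 juveniles and -0.41, 0.02, -0.47, -1.02 and -0.54 in X35 juveniles. It was at least 2.26-fold higher in X22 (adjusted p = 0.044), and its other probe, C073R026, differed by 0.60 (adjusted p = 0.24). WD repeat-containing protein 82 (C209R002), a subunit of a histone H3 lysine methyltransferase complex, ranged from 0.09 to 0.86 in X22 juveniles and from -1.20 to -0.28 in X35 juveniles, and was at least 1.70-fold higher in X22 (adjusted p = 0.047). The remaining named higher probes, transcription termination factor 1-like (C194R001, adjusted p = 0.011) and EF-hand domain-containing family member A1-like (C143R012, adjusted p = 0.029), are named after their values were seen. They were above the limit on 1 and 2 X22 arrays and on no X35 array, so no bound is given.

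Of the 35 higher probes, 13 lay in the first 17 of the 170 spot rows, where 2008 of the tested probes lay and no lower probe was called. DNA damage-inducible transcript 4-like, WD repeat-containing protein 82, transcription termination factor 1-like and EF-hand domain-containing family member A1-like were among them. In those rows the median difference over all probes was 0.21 in unenriched juveniles and -0.19 in enriched juveniles, and it declined to -0.10 in unenriched juveniles by the last 17 rows. The median log2 ratio in the first 17 rows was 0.12, 0.32, 0.20, 0.11 and 0.06 in the X22 juveniles, against -0.52, -0.04, -0.14, -0.01 and 0.38 in the X35 juveniles. After a smooth trend over rows and columns was removed from each array, a step added after the data were seen, 4 of the 13 probes and 21 of the 22 higher probes in other rows were still called. DNA damage-inducible transcript 4-like (adjusted p = 0.083) and WD repeat-containing protein 82 (adjusted p = 0.105) then missed the threshold, while adenomatous polyposis coli protein was still called (adjusted p = 0.030). Of the 53 lower probes 46 were still called, and mitogen-activated protein kinase kinase kinase kinase 5 (adjusted p = 0.058) and the unnamed C022R063 (adjusted p = 0.053) were not.

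**Figure D2:**
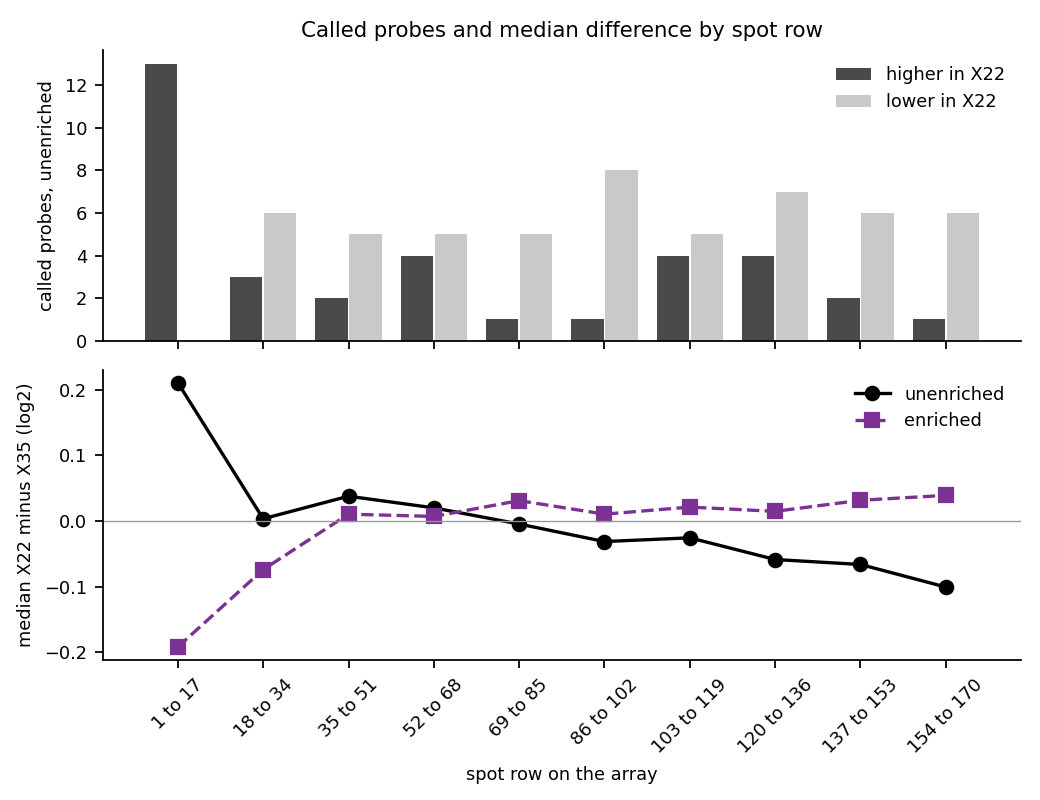
Top, the number of called probes in unenriched juveniles that were higher (dark) or lower (light) in X22, by spot row on the array in 10 bands of 17 rows. Bottom, the median X22 minus X35 difference over all tested probes of a band (log2), for unenriched (circles) and enriched juveniles (squares). The first band held 13 higher and no lower called probe, with medians of 0.21 and -0.19.

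Because only 3 named higher probes qualified, 9 further named probes that did not pass the test were taken by their unadjusted p and are given as values. Protein LSM12 homolog (C121R158), an RNA-binding protein, lay between 0.36 and 1.34 in X22 juveniles and between -1.18 and -0.20 in X35 juveniles, a difference of 1.33 (adjusted p = 0.051), and it was 1.42 in enriched juveniles (adjusted p = 0.029). The 4F2 cell-surface antigen heavy chain (C078R012), a chaperone of amino acid transporters, differed by 0.84 (adjusted p = 0.064), and its other probe, C216R102, by 0.24 (adjusted p = 0.357). Claudin-5-like (C240R004), a tight junction protein, differed by 0.94 (adjusted p = 0.081), and its other probe, C186R064, by 0.49 (adjusted p = 0.297). A ras-related and estrogen-regulated growth inhibitor-like probe (C217R035) differed by 1.49 and serine/threonine-protein phosphatase PP1-alpha (C214R029) by 1.55. The other 4 were under the Cy5 limit on every X35 array. Uroplakin-1a (C166R069), an epithelial membrane protein, lay between -0.04 and 1.44 in X22 juveniles and between -1.61 and -0.06 in X35 juveniles (adjusted p = 0.081). Epidermal growth factor-like protein 6 (C201R007), in spot row 7, was at least 3.48-fold higher in X22 by its bound (adjusted p = 0.082). Estrogen receptor binding site 9 (C056R005, as the name stands; adjusted p = 0.060) and histone-lysine N-methyltransferase MLL3 (C077R151, adjusted p = 0.077) complete the set, and the other MLL3 probe, C079R135, had the opposite sign at -0.39 (adjusted p = 0.391). Lack of overlap between the families was a condition of choice for all 9, whose adjusted p lay between 0.051 and 0.082.

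The largest difference among higher probes, and the second and the third largest among lower ones, were at probes without a name. C126R012 had log2 ratios of 1.39, 1.69, 2.45, 1.83 and 1.21 in X22 juveniles and -1.57, -0.30, -0.78, -0.81 and -1.20 in X35 juveniles, a difference of 2.65 ± 0.27 (SE, adjusted p = 0.011). It lay in row 12, was called in all 10 runs with a juvenile left out, and differed by 2.47 after removal of the spatial trend (adjusted p = 0.011). C116R002, in row 2, was higher in X22 without overlap (adjusted p = 0.036), and 0.057 was its adjusted p without the trend. It was above the Cy5 limit on 2 X22 arrays and on no X35 array, so no bound is given. C022R063 differed by -2.28 (adjusted p = 0.048) with overlapping families, X22 replicate 2 at -0.03 and X35 replicate 2 at -0.12. C057R153 had -0.35, -0.51, -1.34, -0.54 and -0.46 in X22 juveniles and 1.47, 0.76, 2.38, 1.23 and 1.08 in X35 juveniles, a difference of -2.02 ± 0.29 (SE, adjusted p = 0.021).

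The same contrast was measured in enriched siblings, which were other fish in other tanks but partly on the same slides. Enriched X22 replicates 1 to 3 shared slides 1 and 2 with the unenriched X22 juveniles. Enriched X35 replicates 1 to 3 shared slide 7 with unenriched X35 replicate 5. The part of slide in what recurred was not tested. In the enriched siblings 128 of 21133 probes (0.606%) were called, 80 higher (0.379%) and 48 lower (0.227%) in X22, and SAM called 880 (4.58%). Of the 88 probes called in unenriched juveniles, 84 (95.5%) had the same sign in enriched juveniles, against 14100 of all 21133 probes (66.7%). Unadjusted p was under 0.05 with the same sign for 57 of the 88 (64.8%), against 15.1% of all probes, and 17 of the 88 (5 higher, 12 lower) were also called. The median absolute difference of the 88 was 1.25 in unenriched and 0.83 in enriched juveniles, and it was smaller in enriched juveniles for 70 of the 88, which had been chosen on the unenriched values.

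Only 3 of the 17 probes called in both environments had a name. Interferon-induced very large GTPase 1-like was lower in X22 in enriched juveniles too (adjusted p = 0.029), ribosomal protein L7 differed by -1.18 (adjusted p = 0.029) and 14-3-3 beta/alpha by -1.36 (adjusted p = 0.019). Another 9 were unnamed lower probes that were above the Cy5 limit on all 10 unenriched arrays. At these 9 the log2 ratios lay between -1.34 and 0.33 in X22 juveniles and between 0.48 and 2.38 in X35 juveniles, with differences of -2.02 to -1.18 in unenriched and -2.30 to -1.11 in enriched juveniles. C057R153 was one of them, at -1.74 in enriched juveniles. X35 replicate 3 had the highest ratio at each of these 9 probes, and whether they read separate transcripts was not tested. The 5 unnamed higher probes differed by 0.94 to 2.65 in unenriched and by 1.31 to 3.03 in enriched juveniles, with C126R012 at the top of both ranges. Not all named differences recurred in size: beta-crystallin B3 differed by -1.24 in enriched juveniles (adjusted p = 0.107), whereas gamma-crystallin M2-like (C070R090) differed by 0.04 (adjusted p = 0.964) and HES-1 by -0.20 (adjusted p = 0.847).

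The families shared a slide only among enriched juveniles, on slide 8, which carried 1 X22 and 2 X35 juveniles. Within that slide 76 of the 79 called probes that could be scored (96.2%) had the same sign as in unenriched juveniles, against 67.5% of all probes. The difference for ribosomal protein L7 was -1.02 there, for C126R012 4.02 and for C057R153 -1.76. These are values of 3 fish with no test.

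No probe of 21133 was called for a family difference that itself differed between environments (0 by the limma interaction contrast). Among the 88 probes called in unenriched juveniles, the lowest adjusted p of this contrast was 0.745. Unadjusted p was under 0.05 for 1252 probes (5.92%). SAM was not run on this contrast. A p that misses the threshold does not show that the family difference was equal in both environments.

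**Figure D3:**
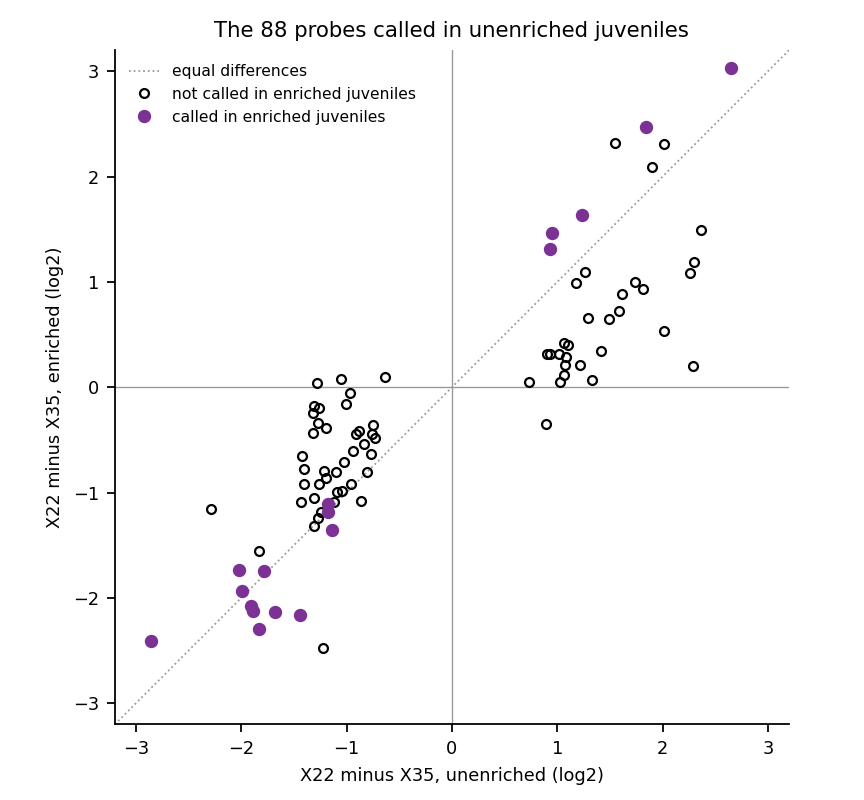
X22 minus X35 difference (log2) in unenriched juveniles (horizontal) and in enriched juveniles (vertical) for the 88 probes called in unenriched juveniles. Filled points are the 17 also called in enriched juveniles, and the dotted line marks equal differences. Of the 88, 84 share a sign, and 70 are smaller in enriched juveniles.

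Groups of genes were described by count and median, beside all 21136 probes (median difference 0.00, 19.2% with an unadjusted p under 0.05) and the 3073 named ones (28.2%). Called probes made up 0.416% of all probes and 0.781% of the named ones. Of 26 lists, 6 had a called member. Mitochondrial respiration had 53 measured probes, 1 called lower, and 46 of the 53 were below 0, with a median of -0.39. Of them 19 were lower and 1 higher at an unadjusted p under 0.05 (37.7%). The juveniles' medians over this list ran from -0.41 to -0.04 in X22 and from -0.15 to 0.37 in X35, so the families overlapped, and the median in enriched juveniles was -0.22. The lowest X35 medians were those of replicates 1 and 2, at -0.15 and -0.03. The heart muscle list had the same median difference of -0.39, with 11 of its 13 probes below 0, and its part in the mitochondrial values was not tested. Ribosome and translation had 41 probes with a median of -0.19, of which 1 was called lower and 14 were lower and 2 higher without adjustment.

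The eye lens list had 4 probes, 2 called lower, and a median of -1.09. Its median by juvenile did not overlap, at -0.85 to -0.21 in X22 and 0.04 to 0.82 in X35, but in enriched juveniles the difference was -0.21. The epidermis and epithelium list had 25 probes and no call, with a median of 0.26 (6 higher and 2 lower without adjustment), and its medians by juvenile did not overlap either, at -0.05 to 0.05 in X22 and -0.56 to -0.09 in X35. In enriched juveniles its median was 0.24, and the medians by juvenile overlapped, at -0.16 to 0.32 in X22 and -0.36 to 0.18 in X35. RNA splicing and RNA binding had 51 probes and no call, with 13 higher and 5 lower without adjustment, a median of 0.17, and 0.35 in enriched juveniles. Its medians by juvenile ran from 0.01 to 0.17 in X22 and were 0.02, 0.18, -0.47, -0.51 and -0.25 in X35. The families thus overlapped through X35 replicates 1 and 2.

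The medians of the 3 immune lists were below 0. Lymphocyte and antigen presentation had 20 probes and no call, 7 lower and 1 higher without adjustment, and a median of -0.46, against -0.49 in enriched juveniles. The chemokine, cytokine and complement list had 32 probes, 1 called lower, and a median of -0.23, with 8 lower and 1 higher without adjustment (28.1%). Interferon response and TRIM had 35, 1 called lower, and -0.16, with 6 lower and 1 higher without adjustment (20%). Neither of these shares exceeded the 28.2% of all named probes. The neuron and synapse list had 44 probes, 1 called lower, with 8 higher and 6 lower without adjustment and a median of 0.18, so the neurofilament probe did not share the list's sign. The medians of these 9 lists kept their sign in all 24 alternative fits that were run for lists. Cell cycle, by contrast, had 53 probes, no call and a median of 0.00.

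**Figure D4:**
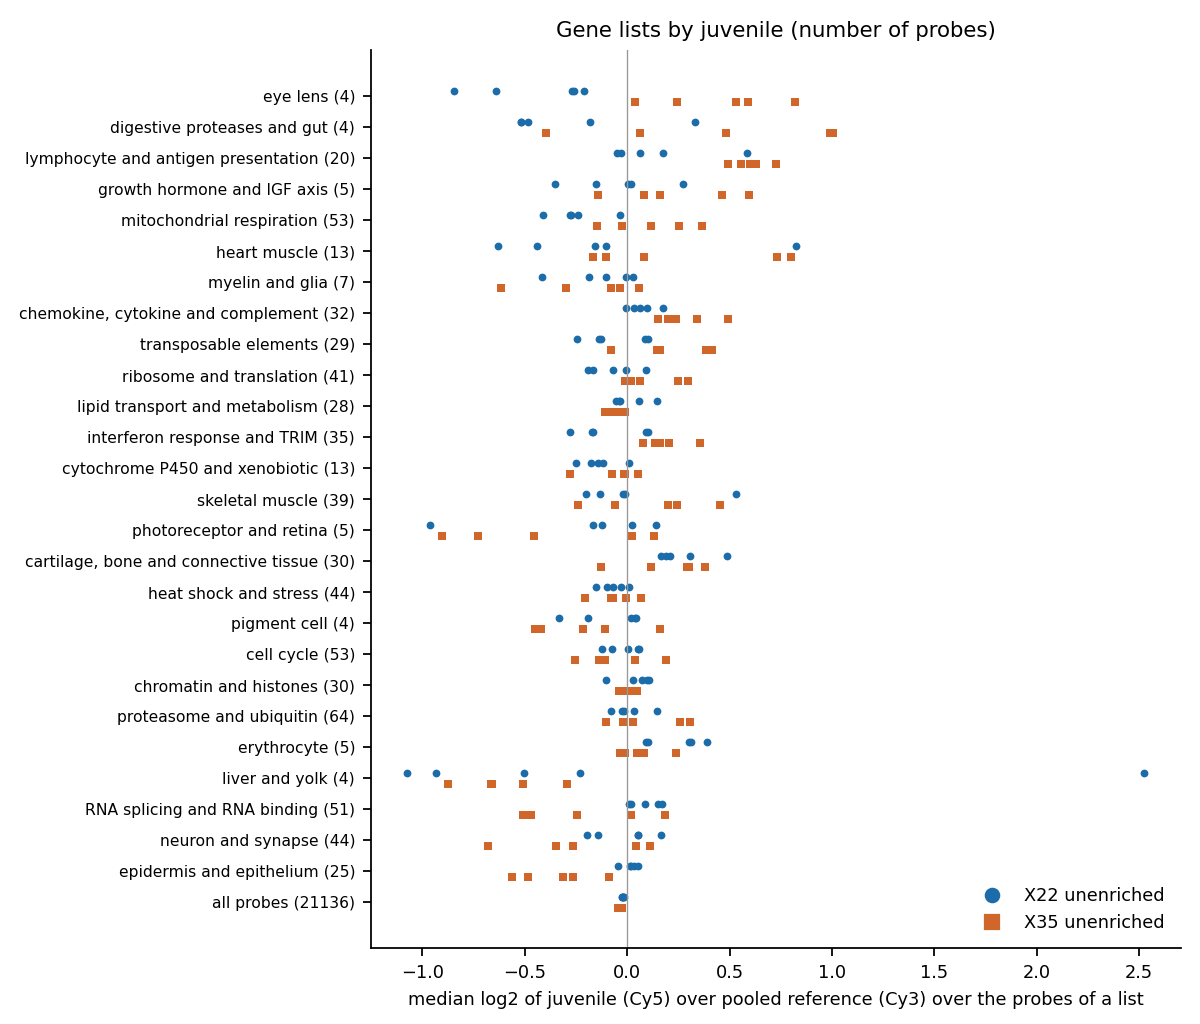
Median log2 ratio of juvenile over pooled reference over the probes of each list (horizontal axis), with 1 circle per unenriched X22 juvenile and 1 square per unenriched X35 juvenile. Numbers of probes are in parentheses. Eye lens and epidermis are the lists whose families do not overlap, while X22 replicate 3 lies far right for liver and yolk at 2.52.

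Several markers of tissues that a head sample may hold in varying amount spread widely within both families. Myosin regulatory light chain atrial isoform (C251R080) had log2 ratios of 1.34, -3.66, 1.13, -2.26 and -3.07 in X22 juveniles and -2.94, -3.10, 1.30, 1.02 and -3.59 in X35 juveniles. Myosin light polypeptide 4 (C086R103) followed the same order of high and low juveniles, at 0.82, -5.08, 0.73, -3.49 and -4.28 in X22 and -3.56, -3.97, 0.99, 0.63 and -4.98 in X35. High values occurred in 2 juveniles of each family, and the family differences were 0.16 and -0.08 (adjusted p = 0.959 and 0.983). Myosin light chain 4-like (C178R075) did not follow that order, at -0.11, 0.15, 0.35, 0.43 and -0.12 in X22 juveniles and 0.94, 0.57, 1.08, 1.41 and 0.24 in X35 juveniles. It was above the Cy5 limit on all 10 arrays, the families overlapped, and it differed by -0.71 (adjusted p = 0.144). In bulk heads less heart tissue and less transcript per heart cell cannot be told apart. Over the 13 heart muscle probes the medians by juvenile ran from -0.63 to 0.83 in X22 and from -0.17 to 0.80 in X35, and 11 of 13 were above the Cy5 limit throughout. The median difference of the list was -0.39, with 2 probes lower and 0 higher at an unadjusted p under 0.05 and no call. It was below 0 in all 24 alternative fits, and it was -0.20 in enriched juveniles.

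Apolipoprotein A-I, a lipoprotein component made chiefly by the liver and associated tissues, was high in 1 fish. Its probes C176R119 and C133R140 read 3.56 and 4.00 in X22 replicate 3, whereas no other juvenile of either family exceeded -0.75 at either probe, and no X35 array was above the limit. Parvalbumin-7-like (C200R008), a calcium-buffering protein, ranged from -0.92 to 1.68 in X22 and from -0.77 to 1.74 in X35. Hemoglobin beta-1 had 1 probe that was saturated on no array, C060R006 in spot row 6, at 0.49, 0.80, 0.09, 0.42 and 0.57 in X22 juveniles and -0.49, 0.74, -0.52, -0.94 and -0.20 in X35 juveniles. The families overlapped through X35 replicate 2, and the difference was 0.75 (adjusted p = 0.189). The other hemoglobin beta-1 probes, C252R104 and C191R109, were saturated on 9 and on all 10 arrays, and myelin basic protein (C124R145) on 5, so their ratios are not compared. No marker probe of the heart, blood, muscle, liver or myelin lists was called. Of the 4 eye lens probes 2 were called lower, and of the 44 neuron and synapse probes 1 was. The part of head composition in the 88 called probes was not tested.

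**Figure D5:**
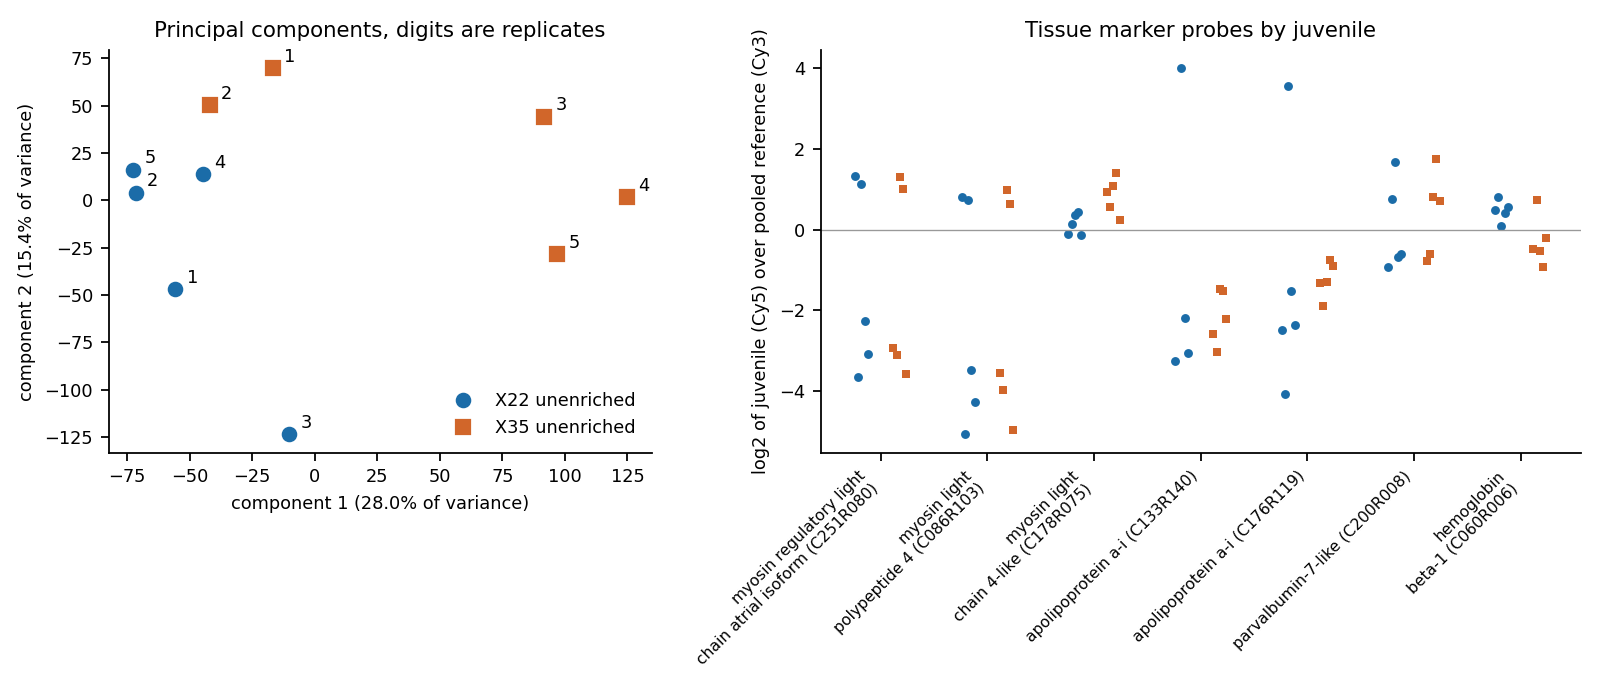
Left, the 10 unenriched juveniles on the first 2 principal components of the log2 ratios (28.0% and 15.4% of variance), digits giving the replicate. Right, log2 ratio of juvenile over pooled reference for 7 tissue marker probes, with X22 as circles and X35 as squares. The probes C251R080 and C086R103 of atrial myosin are high in 2 juveniles of each family and apolipoprotein A-I in X22 replicate 3.

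The median over probes of the SD among siblings was 0.276 in X22 and 0.314 in X35, and 58.1% of 20213 probes had the larger SD in X35. On the first principal component the X22 juveniles lay between -72.5 and -10.1, whereas the X35 juveniles lay at -16.8, -41.9, 91.7, 125 and 96.9, so X35 replicates 1 and 2 fell within the X22 range. X22 replicate 3 stood apart on the second component at -124, and X35 replicate 5 on the third at -90.7. Without both of these, 7 probes were called in place of 88, of which 3 were among the 88. All 88 kept their sign, which lack of overlap between the families fixed in advance for all but 2 lower probes.

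Family X11, with a wild sire, was set beside both as a description. Its unenriched mean lay between the X22 and X35 means for 26 of the 35 higher and 37 of the 53 lower probes. These probes were chosen for a wide gap between X22 and X35, and no share over all probes was computed. The counts are therefore not read as a result about X11. It was nearer to X22 for 15 higher and 23 lower probes and nearer to X35 for 20 and 30. For example, X11 averaged 1.65 at the lymphatic vessel receptor, 1.93 at HES-1 and 1.96 at the ATP synthase subunit, each above the X35 mean, but -0.03 at 14-3-3 beta/alpha and -0.76 at C126R012.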

How the data were processed

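Whole-head RNA of each juvenile (Cy5) and the pooled reference (Cy3) were hybridized together to a salmonid 4x44K array. The authors quantified the scans in Imagene, and the deposited scanner values are intensity per spot, with signal and background medians. The deposited value table, which holds log2 ratios that the authors normalized, served as an alternative, and its columns correlated with the values used here at 0.997 or more. Here, background medians were subtracted, spots with an Imagene quality flag of 1, which the authors set by hand, or of 2 were dropped, spots with Cy3 under mean background plus 2 SD were removed, log2 of Cy5 over Cy3 was normalized by loess within arrays (span 0.4, 5 iterations), and probes missing on 8 or more of 30 arrays were left out, which kept 21136 of 43689 probes (0.592% of their values on the 10 arrays were missing and were not imputed). Families were compared with limma 3.58.1 in R 4.3.3 (lmFit and eBayes, two-sided) on the 10 unenriched arrays alone, with Benjamini-Hochberg adjustment over all probes and a threshold of 0.05. The enriched families were fitted in the same way, and the interaction on all 20. SAM, the study's test, was rewritten here with 100 permutations as an alternative.

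Where all arrays of a family were under the Cy5 limit, a bound ("at least N-fold") was taken from the brighter family's Cy5 level over the lowest Cy5 signal above the limit, or over the dim probe's own level if higher, after quantile normalization of the average signal between arrays, which is open to dye bias since no dyes were swapped. No bound is given where it came out under 1 or above the fold of the ratios. The number of arrays limits the precision. Array measures were compared by exact permutation tests (scipy 1.17.1). Replicate numbers did not pair the families. Scripts were tested on simulated data.

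Probes named individually were, in each direction, up to 12 named probes with the largest differences that were called, complete on at least 4 of 5 arrays, bright on at least 3 arrays of a family and without overlap, filled by unadjusted p where fewer qualified; called members of each list; 2 unnamed probes per direction; and fixed tissue markers. The members, lists and tests were chosen with earlier results of these data known. Probe names came from the study's supplementary probe lists, and 0 of 112 array accessions matched the gene table used here. Of the probes that this rule selects, 1 is not reported here.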

Additional observations from a re-analysis of the deposited data

Results flagged for a closer look

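In 4 of the 64 sets of 5 siblings tested with Dixon's criterion, 1 juvenile stood apart from its siblings, and chance gives about 1 in 20. X22 replicate 2 was at -3.0824 for interferon-induced very large GTPase 1-like (C066R111), where its siblings lay between -0.86 and -0.30. X22 replicate 4 was at 0.3467 for neurofilament light polypeptide (C219R080), with siblings between -0.04 and 0.05. X22 replicate 3 was at -1.3396 for C057R153, with siblings between -0.54 and -0.35. X35 replicate 2 was at -0.2009 for C116R002, with siblings between -2.36 and -1.81. Each value is a log2 ratio, and none crossed into the other family's range.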

How the results depend on the processing

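The 88 called probes of the unenriched comparison kept their sign in every alternative in which they were measured, apart from 1 probe with slide as a fixed block. Where the families did not overlap, leaving out juveniles could not change a sign. Called counts were 141 with normexp correction, 54 without a filter on dim spots, 2937 with array quality weights and 720 with all 30 arrays in 1 fit. They were 328 with slide as a random block and 145 with slide as a fixed block over all 30 arrays. Of the 88, 3 were among those 145, and 55 had an unadjusted p under 0.05 and the same sign there. SAM called 1638, among them all 83 of the 88 that it tested. The count was 7 with X22 replicate 3 and X35 replicate 5 left out together, and between 12 and 650 with 1 juvenile left out. It was 101 from the authors' value table, 85 after scaling, 98 and 103 under stricter filters, 82 with the spatial trend removed and 74 without the first 17 rows. With the replicate number as a block 7 probes were called. The numbers did not pair the families (correlations of same-numbered siblings from -0.143 to 0.157, 1 of 5 closest to its own number).

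The enriched count of 128 became 55 with normexp, 36 without the filter, 624 with weights, 647 with all 30 arrays, 880 by SAM, 19 with the replicate block and 29 to 193 with 1 juvenile left out. The difference between environments had 0 calls except 31 with slide fixed and 0 to 3 with 1 juvenile left out. Signal over background limited 30 of the 88 probes, which had no Cy5 signal above the limit in at least 1 family. The cause of these changes was not tested.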
